A study of Mus musculus with 2 samples.

Results

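The genes described here make, export, degrade and sense sphingosine-1-phosphate (S1P) in the striatum of MPTP-treated mice. They comprise 9 genes, namely the kinases *Sphk1* and *Sphk2*, the lyase *Sgpl1*, the transporter *Spns2* and the receptors *S1pr1* to *S1pr5*, out of 36998 distinct gene names on the array. Their probes were chosen by gene symbol alone, which gave 10 probes of 56605, but the gene set itself was picked with array values of *Sphk1* and *S1pr3* already known, so that the ratios of Cx30 KO over WT below are descriptions and support nothing by themselves. Both groups were 8-week-old male mice that received 20 mg/kg MPTP, a toxin of dopaminergic neurons, in 4 injections at 2 h intervals, and striata were taken on day 1. The WT array holds a pool of 2 mice whose strain is labelled C57BL/6J, and the Cx30 KO array a pool of 2 mice labelled Cx30-LacZ, homozygous for a constitutive deletion of *Gjb6*, the gene of the astrocytic gap junction protein Cx30. The methods describe the WT controls as non-mutant offspring of heterozygous parents, whereas the strain labels differ, so genotype and background cannot be told apart. With 1 pool for each genotype there is no error between mice and no test, and saline-treated mice were not analysed here, so no value below measures the response to MPTP itself.

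S1P is a signalling lipid that carries information between cells and whose cleavage is the only exit from sphingolipid metabolism. Ceramidases release sphingosine from ceramide, the sphingosine kinases phosphorylate it, phosphatases return it to sphingosine, and S1P lyase cleaves it irreversibly. Spns2 exports S1P from endothelial cells, and the receptors are G protein-coupled, with *S1pr1* prominent in endothelium and astrocytes, *S1pr2* and *S1pr3* in vascular cells and *S1pr3* also in astrocytes, *S1pr4* in leukocytes and *S1pr5* in mature oligodendrocytes. *S1pr3* is in common use as a marker of reactive astrocytes of any kind (pan-reactive) and *Sphk1* as a marker of the A2 state, which is held to be protective.

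The probes are 60-mers, and their first 30 bases at the 5′ end are shown, as the array files give them, for the genes on which the results turn, namely the pair of kinases, the lyase with both probes, the receptor with the largest difference and the oligodendrocyte receptor. Capitals are not used in these sequences.
*Sphk1* (NM_025367, mm9 chr11:116397908-116397967, plus strand): ttgcatatagaagacactccccattgctct
*Sphk2* (NM_020011, mm9 chr7:52965880-52965939, minus strand): gggcctgcctttcttgatgtccaatgatgg
*Sgpl1* brighter probe (NM_009163, mm9 chr10:60561463-60561522, minus strand): ttatacttggaaaatggtacttgcctcttt
*Sgpl1* dimmer probe (NM_009163, mm9 chr10:60561392-60561451, minus strand): ctttcctaactgcagcaataacccttcaaa
*S1pr3* (NM_010101, mm9 chr13:51517079-51517138, plus strand): tcactgatattaatcacacattgtacagga
*S1pr5* (NM_053190, mm9 chr9:21047372-21047431, minus strand): gcacatggtacaaagattgaatgcaggcaa
The other member probes lie on chromosome 11 (72265167 to 72265226, *Spns2*), chromosome 3 (115414020 to 115414079, *S1pr1*), chromosome 9 (20770729 to 20770788, *S1pr2*) and chromosome 10 (80961501 to 80961560, *S1pr4*) of mm9. No member probe (0) lies on chromosome 14, which carries *Gjb6*, and no member probe (0) shares its sequence with a probe of another gene. Each member probe was printed in 1 spot.

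Signals are linear processed intensities in arbitrary units, and the error after each signal is the one the scanner software gives for that spot. Log2 ratios are Cx30 KO minus WT after each array was scaled to its 75th percentile, and their error combines both spot errors. Ratios and folds are likewise given after this scaling, whereas signals and sums of signals are not scaled between arrays. Over 298 probes that were printed 10 times, repeated spots gave an SD of 0.07 for a log2 ratio. The combined software error was larger, at 0.20 to 0.22 for every measured member probe. Over 7147 genes with several probes, the SD of the log2 ratio among the probes of 1 gene was larger (0.26), and it is called the probe SD below. *Gjb6*, the deleted gene, gave 1788 ± 179 in the WT pool and 111 ± 11.6 in the Cx30 KO pool at its brighter probe, and its other probe, at 79.0 in WT, was lost in the background of the Cx30 KO array. The striatal markers *Drd1* and *Ppp1r1b* were well above background in both pools. A gene was called lower when its ratio was at most 0.66 with a Z-score of at most −2.0, and higher when its ratio was at least 1.5 with a Z-score of at least 2.0, where the Z-score sets a log2 ratio against the 1000 probes nearest in mean signal.

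The kinases differed from each other. *Sphk1*, the inducible cytosolic kinase, was measured at 1067 ± 106.7 in the WT pool and at 324 ± 32.7 in the Cx30 KO pool. After scaling, it was 3.13-fold lower in Cx30 KO (log2 ratio −1.65 ± 0.20, Z-score −5.14). *Sphk2*, the kinase found largely in the nucleus and mitochondria, was measured at 1142 ± 114 in the WT pool and at 949 ± 95.0 in the Cx30 KO pool (log2 ratio −0.19 ± 0.20, Z-score −0.71). The pools were far apart for *Sphk1*. For *Sphk2* the log2 ratio was smaller than its software error, but larger than the SD of 0.07 between repeated spots. The difference between the kinases, *Sphk1* minus *Sphk2*, was −1.45 on the log2 scale, several times the probe SD. Among the 22008 genes well above background on at least 1 array, *Sphk1* ranked 327 from the lowest log2 ratio.

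**Figure D1:**
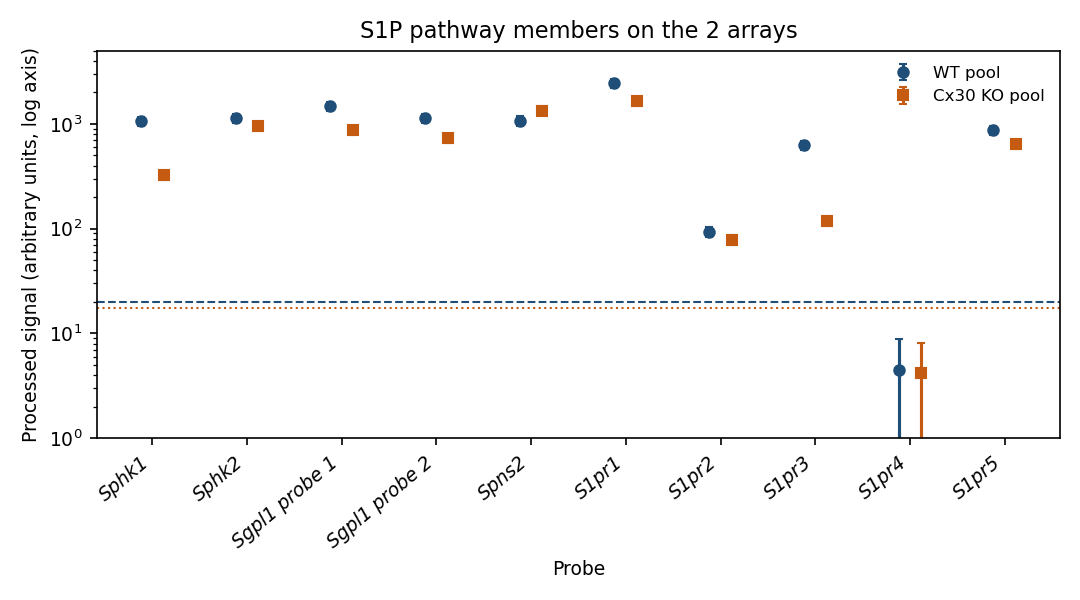
Processed signal (arbitrary units, log axis) of each member probe in the WT pool (circles) and the Cx30 KO pool (squares), with the spot error of the scanner software as bars, which run below the axis for *S1pr4*. The dashed (WT) and dotted (Cx30 KO) lines are the lowest signals well above background, 19.8 and 17.4. The squares of *Sphk1* and *S1pr3* lie far below their circles, *Spns2* alone has the square above, and *S1pr4* lies under both lines.

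*Sgpl1*, the lyase that ends S1P signalling inside the cell, has 2 probes, and both gave less signal in Cx30 KO. The brighter probe was measured at 1475 ± 148 in the WT pool and at 871 ± 87.2 in the Cx30 KO pool (log2 ratio −0.69 ± 0.20, Z-score −2.47). The dimmer probe was measured at 1128 ± 113 in the WT pool and at 734 ± 73.5 in the Cx30 KO pool (log2 ratio −0.55 ± 0.20). These log2 ratios differ by 0.14, which is below the probe SD. However, the probes fell on opposite sides of the limits, the brighter one inside with a ratio of 0.621 and the dimmer one just outside with 0.684 and a Z-score that narrowly missed its limit. *Spns2*, which exports S1P, was the single measured member with more signal in Cx30 KO, at 1341 ± 134 against 1071 ± 107.2 in WT. Its log2 ratio of 0.40 ± 0.20 and Z-score of 1.49 did not pass the limits.

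Among the receptors, *S1pr3* stood apart. It was measured at 628 ± 63.0 in the WT pool and at 119 ± 12.7 in the Cx30 KO pool. After scaling, it was 5.01-fold lower in Cx30 KO (log2 ratio −2.32 ± 0.21, Z-score −5.77). Its rank was 236 from the lowest of the 22008 genes. *S1pr1*, the receptor that couples to Gi alone and maintains the vascular barrier, was measured at 2442 ± 244 in the WT pool and at 1659 ± 166 in the Cx30 KO pool (log2 ratio −0.49 ± 0.20). Its ratio was 0.714 and its Z-score −1.93, so it stayed short of both limits. *S1pr5* was measured at 878 ± 87.9 in the WT pool and at 641 ± 64.3 in the Cx30 KO pool (log2 ratio −0.38 ± 0.20, Z-score −1.30). *S1pr2*, which acts mainly through G12 and G13, was dim, at 93.1 ± 10.2 in the WT pool and 78.6 ± 8.66 in the Cx30 KO pool. Its log2 ratio of −0.17 ± 0.22 was smaller than its software error (Z-score −0.56). *S1pr4* was not well above background on either array, at 4.45 ± 4.46 (WT pool) and 4.19 ± 3.97 (Cx30 KO pool), so it has no fold. The log2 ratio of *S1pr3* minus that of *S1pr1* was −1.84, minus that of *S1pr5* −1.94 and minus that of *S1pr2* −2.15.

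In order of their log2 ratios, the 8 measured members ran from *S1pr3* through *Sphk1*, *Sgpl1*, *S1pr1*, *S1pr5*, *Sphk2* and *S1pr2* to *Spns2*. The gaps from *S1pr3* to *Sphk1* (0.68), from *Sphk1* to *Sgpl1* (0.96) and from *S1pr2* to *Spns2* (0.57) were larger than the probe SD of 0.26. The other 4 gaps were 0.02 to 0.20, so that within the run from *Sgpl1* through *S1pr1*, *S1pr5* and *Sphk2* to *S1pr2* no gene is separated from the next. A gap carries the error of 2 log2 ratios, so the probe SD, which is that of a single ratio, is a lenient yardstick. It also holds no variation between mice. By the limits, 3 of 8 measured members were lower in Cx30 KO, namely *S1pr3*, *Sphk1* and *Sgpl1*, against 3.39% of all genes called lower, and 0 were higher, against 2.39% of all genes. The same contrast was known when the members were chosen, and nothing is read from the comparison of these shares. Among single probes, 3 of the 9 member probes well above background were lower, against 2.93% of 33910 probes, and 0 were higher, against 2.08%. The median log2 ratio of the measured members was −0.43, and that of all genes was 0.03.

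**Figure D2:**
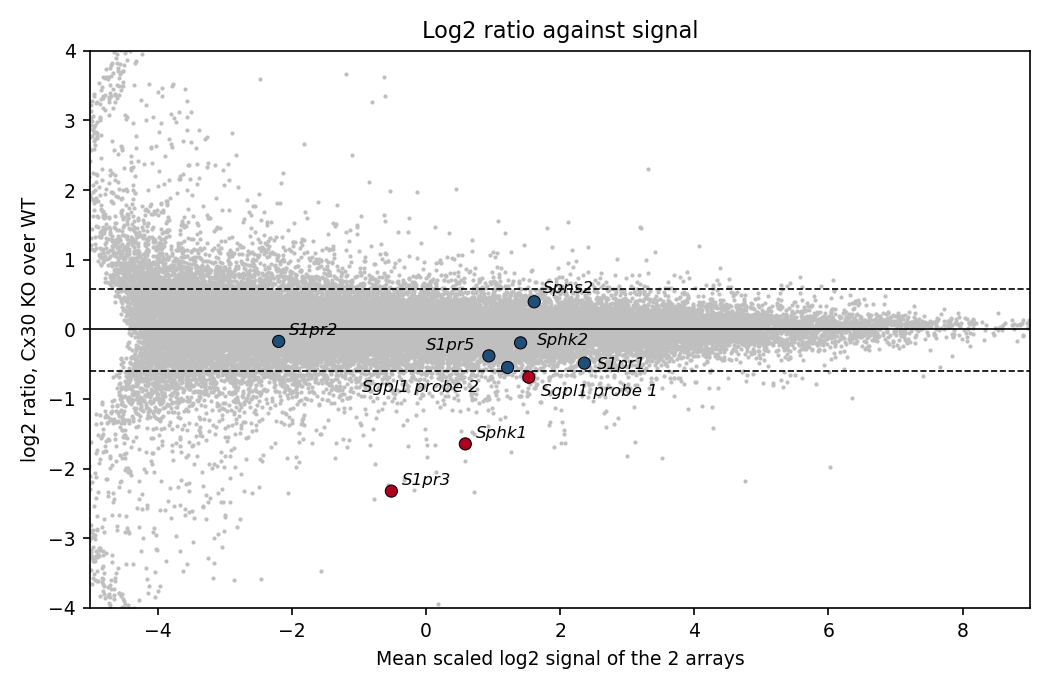
Log2 ratio of Cx30 KO over WT against the mean scaled log2 signal of both arrays for all probes well above background (grey) and for the member probes (red where called lower, blue otherwise). Dashed lines are the ratio limits of 1.5 and 0.66, and 356 probes lie outside the axes. *S1pr3* and *Sphk1* lie under the grey cloud at their signal, and the other members lie inside it.

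The calls for *S1pr3* and *Sphk1* held in each of 11 alternative settings, with Z-scores between −7.55 and −3.91 for *S1pr3* and between −5.14 and −2.78 for *Sphk1*. Scaling by the array median, probe means, the filters on dim probes and the bound for genes detected on 1 array cannot change these Z-scores. The deposited value table nearly repeats quantile normalisation. The number of settings is therefore no measure of stability. *Sgpl1* was called lower in 9 of 11, and was not called with a Z-score over all probes (−1.18) or with ratio limits of 2 and 0.5. No other member was called in any of the 11 settings (0 calls).

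**Figure D3:**
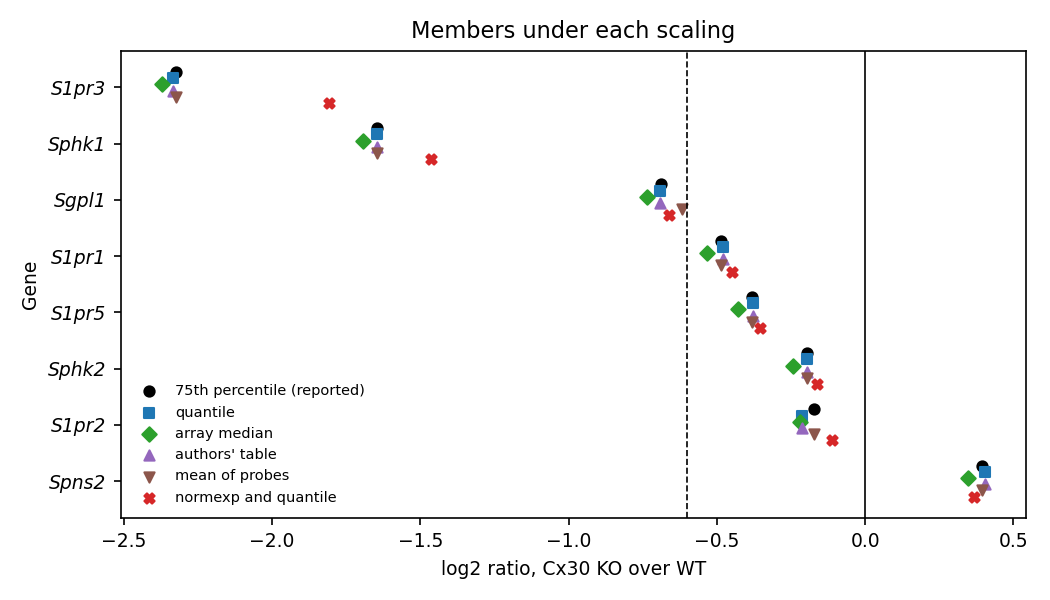
Log2 ratio of Cx30 KO over WT for each measured member under the reported scaling and 5 other settings. The dashed line is the ratio limit of 0.66. The order of *S1pr3*, *Sphk1* and *Sgpl1* is the same in all settings shown, and *S1pr3* has −1.81 with normexp (offset 50) and quantile normalisation against −2.32 as reported.

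Each receptor was then set beside markers of the cell types known to express it. In pooled tissue, fewer cells of a type and less RNA per cell cannot be told apart. For astrocytes, all 7 markers other than *Gjb6* were detected, with a median log2 ratio of 0.01 and with 3 below and 4 above 0. *Slc1a2* and *Slc1a3*, the glutamate transporters of astrocytes, had 0.17 and 0.01, and *Aqp4*, the water channel of the endfeet, was the single one called lower (−0.95, with −4.24 to 0.02 at its other probes). The summed signal of these markers, before scaling, came to 146108 in the WT pool and 133033 in the Cx30 KO pool, of which *Aldoc* alone gave 117041 and 106181. After scaling, the ratio of the sums was 0.957. *S1pr3* and *Sphk1* had log2 ratios below all 7 of these markers. *S1pr1* lay 0.50 below their median, with 1 of the markers below it and 6 above. The sign of the astrocyte median is not stable, being −0.03 when *Gjb6* is counted.

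Most genes of reactive astrocytes were called lower. Of 12 pan-reactive genes other than *S1pr3*, 11 were well above background and 9 were called lower, with a median log2 ratio of −1.04. *Cd44*, the hyaluronan receptor, was the only one with a log2 ratio below that of *S1pr3* (−2.44, and −1.84 at its other probe), followed by *Timp1* (−1.89) and *Gfap* (−1.62). *Lcn2* (0.35) and *Cp* (0.42), both secreted acute-phase proteins, had positive log2 ratios that did not pass the limits, although the other probes of *Cp* had −1.31 to −0.10. Of 11 A2 genes other than *Sphk1*, 9 were well above background, 6 were called lower and 1 was called higher, with a median of −1.37, or −1.16 with the 3 genes detected on 1 array only set at their bound. *Sphk1* lay within the range of these genes. *Tgm1* (−3.48), a crosslinking enzyme, and *Ptx3* (−2.26), a soluble pattern receptor, were the lowest with a level on both arrays, and *Cd14* (0.70) was the highest. These lists were set up with results of these arrays known, and their shift is no independent support for that of *S1pr3* and *Sphk1*.

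Vascular markers were set beside the receptors of vascular cells and *Spns2*. All 9 endothelial markers were detected, with 7 below and 2 above 0. Their median log2 ratio was −0.34, and their summed signals were 8092 in WT and 6534 in Cx30 KO. *Flt1*, a receptor for VEGF, was the only one called lower at its brightest probe (−0.93), although its other probes had −0.15 to 0.52. *Cldn5*, the tight junction protein of the blood-brain barrier, had 0.30. *S1pr1* minus the endothelial median was −0.15, and *S1pr2* lay 0.16 above that median. *Spns2* had a log2 ratio 0.73 above the endothelial median, and only *Pecam1* (0.58) was higher. Of 7 mural markers, which mark pericytes and smooth muscle, 0 were called in either direction, with 3 below and 4 above 0 and a range from −0.63 to 0.31. *S1pr2* had 3 mural markers below it and 4 above. *S1pr3* lay below all 9 endothelial and all 7 mural markers.

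*S1pr5* was set beside markers of oligodendrocytes. At their brightest probes, all 10 markers had negative log2 ratios, and 7 of them were called lower, with a median log2 ratio of −0.73 and summed signals of 208662 in WT and 129765 in Cx30 KO. *Cldn11*, the tight junction protein of myelin, had −1.12, and *Mog*, a protein of the outer myelin surface, had −0.91. Other probes went the opposite way for *Mag* (0.24), *Cnp* (0.19) and *Mbp* (up to 0.12). Of the 10 markers, 9 had a log2 ratio below the −0.38 of *S1pr5*, and *Ermn* (−0.03) was the only one above. A part of fewer oligodendrocytes or less myelin in the value of *S1pr5* was not tested.

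Lymphocyte markers bear on *S1pr4*. Of 8 such markers, 4 were well above background, and the others were not, nor was *S1pr4* itself. T cell genes were found on both sides, with *Cd3e*, *Cd4* and *Lck* well above background in both pools and *Cd3g* and *Cd8a* in neither. In the WT and Cx30 KO pools *Cd4* gave 6128.5 and 5692, *Cd3e* 481 and 483, and *Lck* 200 and 230. Whether lymphocytes gave these signals was not tested. The 4 detected lymphocyte markers had log2 ratios between −0.04 and 0.27, and 0 were called. Markers of other cell types moved between the pools as well. Of 8 microglia markers, 7 had negative log2 ratios and 5 were called lower (median −0.78, summed signals 89366 and 82262, of which *Itgam* alone gave 60045 and 62438), and *P2ry12* had the lowest log2 ratio (−1.69). All 6 cortical neuron markers had positive log2 ratios and 5 were called higher, with a median of 3.24, or 2.14 with genes detected in Cx30 KO alone set at their bound, and summed signals of 175 and 1391. In WT only *Neurod2* and *Tbr1* of these 6 were well above background. The 9 striatal neuron markers ranged from −0.40 to 0.23 with 0 calls, and of 4 detected choroid plexus markers *Ttr* was called lower (−1.27). The part of these shifts in the ratios of the S1P genes was not tested.

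**Figure D4:**
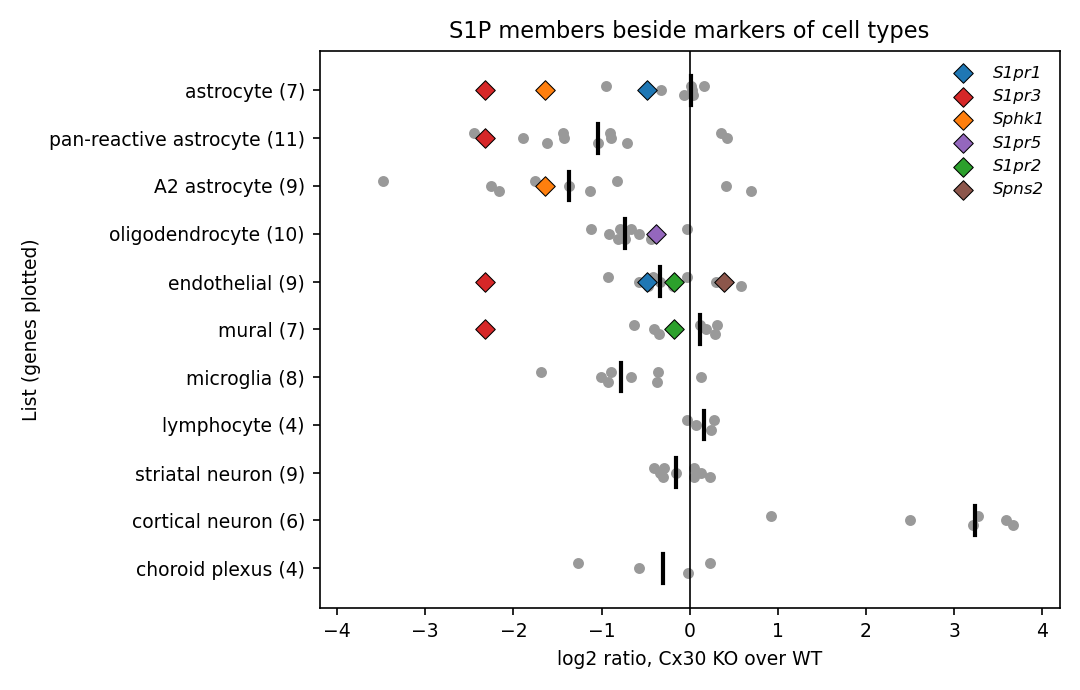
Log2 ratio of Cx30 KO over WT of marker genes (grey) by cell type, with the median as a bar and the S1P members as diamonds in the rows of cell types known to express them. *Gjb6*, *S1pr3* and *Sphk1* are left out of the grey points, and genes detected on 1 array only are drawn at their measured ratio. *S1pr3* lies left of all astrocyte, endothelial and mural markers but among the pan-reactive genes, and *S1pr5* lies right of 9 of 10 oligodendrocyte markers.

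The remaining genes of the pathway were set in 5 lists with 56 genes, of which 50 were well above background. Of these 50, 3 were called lower and 2 were called higher, against 3.39% and 2.39% of all genes, and 33 had a ratio under 1. Neither share lay below that of all genes, and from counts this small nothing is read about the pathway. Of 19 detected genes that supply sphingosine (from serine palmitoyltransferase through ceramide synthases to ceramidases and sphingomyelinases), 0 were called lower at their brightest probes, and the median log2 ratio was −0.03. Other probes lay apart for some of them, such as *Cers4* (0.37, with −1.35 to 0.76 at its other probes) and *Cers6* (−0.27, with −0.10 to 0.66). *Asah1*, the lysosomal ceramidase, had −0.08, *Degs1*, the desaturase that completes ceramide, had −0.15, and *Sptlc3*, a subunit of the first enzyme, had 0.04. *Cers3*, a ceramide synthase for very long chains, was called higher (1.08) at low signals of 40.1 in WT and 81.0 in Cx30 KO. *Cers1* was not found on the array under this symbol.

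All 9 genes that dephosphorylate, move or carry S1P were detected, with a median log2 ratio of −0.21. *Sgpp1*, the phosphatase of the endoplasmic reticulum, had 0.26, and *Sgpp2* had −0.58 at signals of 104 and 66.3. *Plpp2*, one of the lipid phosphatases that act on S1P outside the cell, was called lower at its brighter probe (703 in WT and 373 in Cx30 KO, −0.84), and its other probe had −0.96. *Plpp3*, the family member of astrocytes and endothelium, had −0.21. *Plpp1* had −0.37 at its brightest probe and −2.30 at the other. *Apom*, which carries S1P in plasma, was called higher (1.36) from 46.8 in WT to 114 in Cx30 KO, which is a single dim probe.

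Ceramide is also used for other lipids, and 11 of 12 such genes were detected, with 1 called lower and a median of −0.12. That gene was *Ugt8a*, the enzyme that makes the galactosylceramide of myelin, at 383 in the WT pool and 135 in the Cx30 KO pool (log2 ratio −1.43, and −1.52 at its other probe). *Gal3st1*, which sulphates galactosylceramide, had −0.48. *Cerk*, which phosphorylates ceramide, had −0.17, and *Ugcg*, for glucosylceramide, had −0.18. *Ormdl1* had 0.24 at its brightest probe and −3.57 at the other. The G proteins through which the receptors act gave 0 calls among 7 genes, from −0.48 (*Gna12*) to 0.35 (*Gnai1*), with a median of −0.11. Of the receptors for lysophosphatidic acid, the nearest relatives by ligand, 4 of 6 were detected. *Lpar1*, a receptor of oligodendrocytes, was called lower (443 in WT and 262 in Cx30 KO, −0.68, and −0.76 at its other probe), *Lpar6* had −0.29 and *Lpar2* 0.11. *Lpar4* was well above background in Cx30 KO alone and at least 1.60-fold higher there, and was not called.

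**Figure D5:**
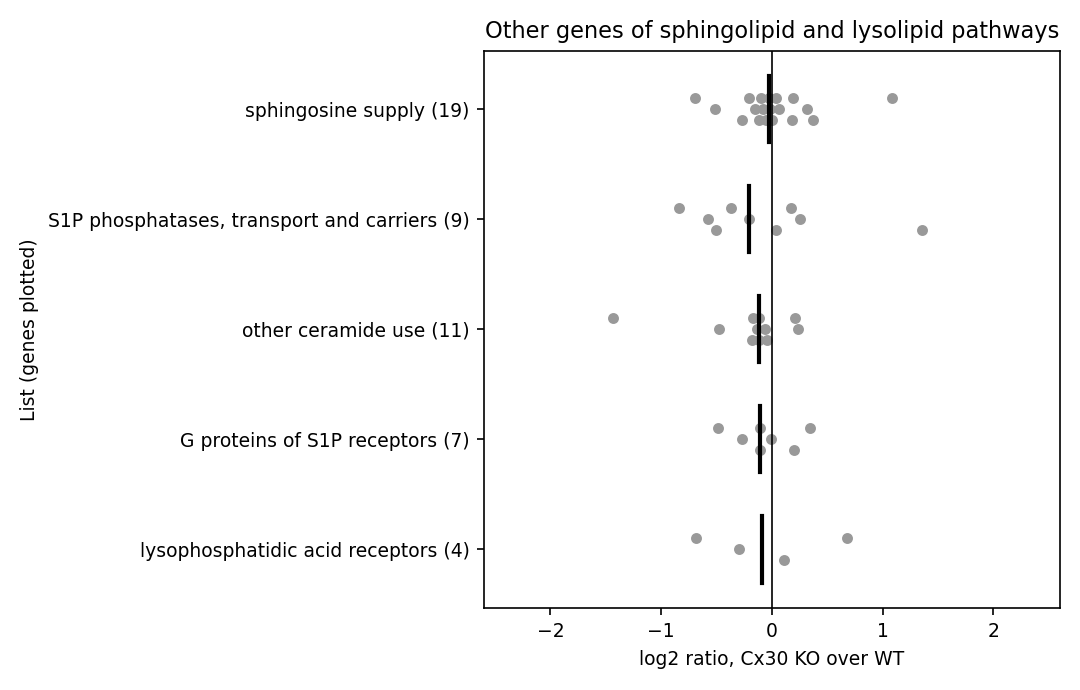
Log2 ratio of Cx30 KO over WT for the detected genes of 5 lists around S1P, with the median of each list as a bar and the number of genes plotted in brackets. The medians lie between −0.21 and −0.03, and the points farthest from 0 are *Ugt8a* at −1.43 and *Apom* at 1.36.

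Because *S1pr3* and *Sphk1* were low together, their promoter windows are shown, beside that of *Sphk2*, the kinase that differed little. Windows run from 250 bases before to 50 bases after an annotated start, on the transcribed strand, and were taken from RefSeq on GRCm38.p6, which matched 8 of 9 members. Capitals mark matches, on either strand, to TGANTCA for AP-1, TTCNNNGAA for STAT, GGGCGG for the GC box, TGACGTCA for CRE, TATAAA for the site of the TATA-binding protein or CCAAT for the box of that name. RefSeq lists 5 starts for *Sphk1*, and the window of start 2 is printed because AP-1 and STAT letters are found there and, as the same bases, in the overlapping window of start 3.
*Sphk1* start 2, GRCm38.p6 chr11:116531587-116531886, plus strand: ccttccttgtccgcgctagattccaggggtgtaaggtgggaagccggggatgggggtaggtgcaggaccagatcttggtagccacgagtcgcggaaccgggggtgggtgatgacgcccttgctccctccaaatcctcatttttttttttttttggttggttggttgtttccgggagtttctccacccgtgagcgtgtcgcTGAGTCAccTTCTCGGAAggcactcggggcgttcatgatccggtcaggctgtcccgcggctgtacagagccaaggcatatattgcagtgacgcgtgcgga
*S1pr3*, GRCm38.p6 chr13:51408368-51408667, plus strand: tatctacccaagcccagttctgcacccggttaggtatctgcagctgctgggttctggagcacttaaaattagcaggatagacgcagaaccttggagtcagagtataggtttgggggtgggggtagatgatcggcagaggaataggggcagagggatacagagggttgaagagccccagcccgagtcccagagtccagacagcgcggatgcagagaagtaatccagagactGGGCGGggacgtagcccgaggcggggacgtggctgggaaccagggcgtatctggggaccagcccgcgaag
*Sphk2* start 1, GRCm38.p6 chr7:45717953-45718252, minus strand: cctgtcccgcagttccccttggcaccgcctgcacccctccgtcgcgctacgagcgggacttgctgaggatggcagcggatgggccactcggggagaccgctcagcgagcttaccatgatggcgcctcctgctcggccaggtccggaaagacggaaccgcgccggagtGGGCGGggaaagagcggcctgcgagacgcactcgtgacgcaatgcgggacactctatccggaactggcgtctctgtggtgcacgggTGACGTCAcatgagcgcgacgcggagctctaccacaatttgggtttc
In the *Sphk1* window the AP-1 letters begin at position −50 and the STAT letters at position −41 from the start, and they do not overlap. Of 32851 windows of the same length for all genes, 7.81% hold the AP-1 letters and 8.30% the STAT letters. These are shares of single windows, whereas the *Sphk1* window was picked from 5 for its letters. The *S1pr3* window holds 1 match, to the GC box at −20, which 35.7% of all windows hold, and has no match to the AP-1 or STAT letters in these bases. The *Sphk2* window holds the GC box at −83 and the CRE letters at 4, the latter found in 1.79% of windows. *Sphk2* has 2 starts, of which the one listed first is shown, and the window of the other holds 3 GC boxes, 2 matches to CCAAT and none of the CRE letters. These matches are letters in a reference sequence, and neither array measured binding at them.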

How the data were processed

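Striatal RNA of 2 pools, WT and Cx30 KO, was hybridised to 1 single-colour Agilent array each. The authors extracted signals with Agilent Feature Extraction (10.7.1.1 in the file headers, 9.5.1.1 in the labels), and the deposited processed signals are linear intensities with the background subtracted and spatial trends removed within each array, which were not scaled between arrays. The normexp alternative replaces that background step and also adds an offset, and their parts were not separated. The deposited value table holds intensities that match the processed signals after quantile normalisation to within 1% for 99.991% of values, and its median is 41.2 on both arrays; how it was made is not stated in the sources used here. Probe positions are those of mm9.

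Control and outlier spots were left out, log2 signals were averaged over the spots of each probe, and each array was centred on its 75th percentile (401.2 in WT, 381.8 in Cx30 KO). A probe was taken as detected where 50% or more of its spots carried the software's mark for well above background (56.6% of probes in WT, 58.2% in Cx30 KO), and 0 spots were saturated. Each gene was represented by its brightest such probe, and 1897 probe names were updated through RefSeq. A gene detected on 1 array is given as at least the fold against the lowest detected signal or its own signal, whichever was higher. The limits on ratio and Z-score follow the methods, which name no set of probes for the Z-score, so the nearest 1000 were used. Named genes are all members, and for the other lists those past the limits, the extremes and defining genes, with *Cers4* and *Cers6* added for their other probes. Members and lists were chosen with earlier results of these data known. With 1 array per group no test could be run, and precision is limited by having so few arrays. Alternatives were other scalings, normexp (limma 3.58.1, offset 50), the value table, probe means, filters on dim probes, Z-score sets and ratio limits. Scripts ran in Python 3.11.15 and R 4.3.3 and were tested on simulated data.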

Additional observations from a re-analysis of the deposited data

How the results depend on the processing

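Of 177 values recomputed under alternatives, 173 stayed within 0.26 on the log2 scale (the SD between probes of a gene) or, for counts of calls, within 1.5 times, and 4 moved further. Many of these values could hardly move. Probe means leave single-probe genes unchanged, and the filters leave lists detected in full on both arrays unchanged. Scaling by the array median shifts all log2 ratios alike, and the value table nearly repeats quantile normalisation. The tally is therefore no measure of stability. With normexp (offset 50) and quantile normalisation, the log2 ratio of *S1pr3* was −1.81, the median of the A2 genes −0.88 and that of the cortical neuron markers 1.26, and without a filter on dim probes the A2 median was −1.25. No call of a member was reversed in any alternative (0). The count of members called lower was 2 with a Z-score over all probes and with ratio limits of 2 and 0.5, where *Sgpl1* was lost, and 3 in the other alternatives. The medians of the mural (−0.03) and striatal neuron markers (0.01) changed sign with the mean of the probes of a gene, so no direction is given for them. Leaving *Gjb6*, *S1pr3* or *Sphk1* out of its marker list was added after seeing the data. No paired analysis was possible because each group has a single array, and leaving out a replicate could not be done. Low signals limit *S1pr2*, *Cers3* and *Apom*, among others, and *S1pr4* was not well above background.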
